A study of Mus musculus with 9 samples.

Results

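Adipocytes store fat as triglyceride in a lipid droplet and release it as fatty acids and glycerol by lipolysis. The 10 genes described here belong to this process and were followed in epididymal adipose tissue of mice through weight loss. They encode the lipases *Pnpla2* (adipose triglyceride lipase, ATGL), *Lipe* (hormone-sensitive lipase, HSL) and *Mgll* (monoglyceride lipase), the ATGL co-activator *Abhd5* (CGI-58), the ATGL inhibitor *G0s2*, the droplet proteins *Plin1*, *Plin4* and *Cidec*, the glycerol channel *Aqp7* and the cAMP phosphodiesterase *Pde3b*. They were chosen by gene name and are 10 of the 56748 genes of the deposited table. All 10 were among the 18510 genes tested.

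The animals of each phase were wild-type male C57BL/6J mice that received a high-fat diet (HFD) for 8 weeks from the age of 8 weeks. The Pre group was sampled at that point, the WL1 group after a further 1 week of standard diet (SD), and the WL2 group after 2 weeks of SD, with 3 libraries for each phase. No group kept on HFD for the same further weeks was analysed here, so the diet switch cannot be told apart from the added time. The labels do not say that each library came from its own mouse, and p-values set differences against the spread between these libraries. In whole tissue, fewer adipocytes and less of an RNA per adipocyte cannot be told apart.

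Lipolysis is switched on by catecholamines, which act through β-adrenergic receptors, cAMP and protein kinase A. At rest, perilipin 1 on the droplet surface holds CGI-58 away from ATGL. Phosphorylation of perilipin 1 frees CGI-58 to activate ATGL, which removes the first fatty acid of a triglyceride, and HSL and monoglyceride lipase then act in turn on the diglyceride and the monoglyceride. Insulin opposes this in part through PDE3B, which breaks down cAMP. *Cidec* encodes a protein at the contacts between droplets that enables their fusion into the large droplet of white adipocytes.

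The sequences just upstream of *Cidec* and *Pnpla2* are shown because *Cidec* is the gene of the 10 that changed most at WL1 and *Pnpla2* encodes the lipase that starts the pathway. Each line is the 250 bases before a RefSeq gene start on GRCm38.p6, written 5′ to 3′ on the strand of the gene. *Cidec* has 2 starts in RefSeq, with windows at chr6:113435761-113436010 (first start, minus strand) and chr6:113434765-113435014 (second start, minus strand). The *Pnpla2* window is chr7:141454938-141455187 (plus strand). None of these windows holds an exon annotated in GENCODE M21. Capitals mark matches to a searched motif on either strand.
*Cidec*, first start: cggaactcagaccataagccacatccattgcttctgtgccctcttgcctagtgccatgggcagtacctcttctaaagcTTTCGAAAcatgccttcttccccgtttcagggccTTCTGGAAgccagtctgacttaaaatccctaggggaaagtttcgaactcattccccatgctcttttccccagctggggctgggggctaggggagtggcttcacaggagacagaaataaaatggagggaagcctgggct
*Cidec*, second start: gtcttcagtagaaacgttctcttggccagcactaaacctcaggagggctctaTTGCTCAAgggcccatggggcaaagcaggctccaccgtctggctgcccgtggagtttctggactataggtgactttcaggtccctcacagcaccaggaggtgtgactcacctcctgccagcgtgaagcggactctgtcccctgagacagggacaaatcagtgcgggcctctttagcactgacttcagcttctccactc
*Pnpla2*: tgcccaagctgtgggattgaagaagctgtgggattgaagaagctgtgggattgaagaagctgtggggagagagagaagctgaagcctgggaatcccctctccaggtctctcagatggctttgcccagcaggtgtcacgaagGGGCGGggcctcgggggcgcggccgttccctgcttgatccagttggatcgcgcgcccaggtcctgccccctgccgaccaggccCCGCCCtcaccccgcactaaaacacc
Searched on both strands were the DR1 element bound by PPARγ and its partner (a direct repeat of AGGTCA with any base between the copies), the repeat unit AGGTCA itself, which lies within DR1, the E-box CACGTG, the TATA box as TATAAA, the CCAAT box, a forkhead site as GTAAACA, the GC box GGGCGG and a loose form of the C/EBP site, TTNNGNAA. The last 2 were added after the windows had been read. The first *Cidec* window held TTNNGNAA at 2 places, beginning 172 and 138 bases before the start, and the second held it once, 198 bases before the start. The match at 172 bases reads the same on both strands and was counted once. The *Pnpla2* window held the GC box 109 and 26 bases before the start and no TTNNGNAA. Both motifs are common in the 32851 RefSeq promoter windows of this length, of which 36.8% hold TTNNGNAA and 32.7% hold GGGCGG. The other motifs, absent from the printed windows, are held by 0.0335% (DR1), 14.0% (its repeat unit), 6.02% (E-box), 12.4% (TATA box), 33.8% (CCAAT box) and 3.17% (forkhead site) of all windows. Windows were found for 9 of the 10 genes.

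The mean level of 7 of the 10 genes was lowest after the first week of SD. At WL1, *Cidec*, *Plin1* and *Abhd5* fell against Pre to 0.559, 0.699 and 0.760 times the Pre level. *Aqp7* stood at 1.42 times the Pre level, but no rise passed the test. At WL2, *Cidec* was still down at 0.630 times the Pre level and *Aqp7* rose to 1.58 times, while *Plin1*, *Lipe* and *Plin4* differed from Pre by −0.04, −0.13 and −0.09 on the log2 scale. Between WL1 and WL2 no gene of the 10 passed the test, although 8 had higher values at WL2.

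These calls come from edgeR's quasi-likelihood test over all 18510 genes, with p-values adjusted by Benjamini-Hochberg and a threshold of 0.05. At WL1 against Pre, 3 of the 10 were called lower, where 4.69% of all genes were, and 0 were called higher, where 2.60% of all genes were. In this comparison 7 of the 10 had an unadjusted p under 0.05, as had 24.3% of all genes, and DESeq2 called 7, where it called 12.7% of all genes. DESeq2 called *Cidec*, *Plin4*, *Plin1*, *Lipe*, *G0s2* and *Abhd5* lower and *Aqp7* higher. The libraries of the phases did not overlap in 5 of the 10, against 28.7% of all genes. The median log2 fold change was −0.44, with 9 of the 10 negative, beside 0.02 over all genes.

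At WL2 against Pre, 1 gene was called higher (3.35% of all genes) and 1 lower (6.66% of all genes). The libraries did not overlap in 6 of the 10 (30.9% of all genes), and the median was −0.11 with 7 negative. An unadjusted p under 0.05 was reached by 5 (26.0% of all genes). DESeq2 called 4 (14.7% of all genes), namely *Aqp7* higher and *Cidec*, *G0s2* and *Abhd5* lower. At WL2 against WL1, edgeR called 0 higher (1.31% of all genes) and 0 lower (2.37% of all genes). Here 5 had an unadjusted p under 0.05 (21.4% of all genes). DESeq2 called 3 (10.5% of all genes), namely *Pnpla2*, *Plin1* and *Pde3b*, each higher at WL2. Limma on log2(FPKM + 1) called 0 (2.90% of all genes), and the libraries did not overlap in 6 (30.3% of all genes). The median was 0.26, with 8 positive, and the median over all genes was −0.0014. The comparisons with Pre share the 3 Pre libraries and those with WL1 share the 3 WL1 libraries, so their values are not independent.

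Over all genes, 482 were higher and 868 lower at WL1, 620 higher and 1233 lower at WL2, and 242 higher and 439 lower at WL2 against WL1. Scaling by library totals without TMM factors turned the first split to 1002 higher and 642 lower, the second to 1495 and 836, and the third to 307 and 385. That scaling moved the median of all genes from 0.02 to 0.12 at WL1 and from 0.0084 to 0.16 at WL2. Depth was 16434450 to 22729072 reads per library, and the 10 genes held 1349 to 101658 reads each. Between libraries of the same phase, chi-square per degree of freedom over all genes was 9.26 to 49.7, where sampling noise alone gives 1.

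**Figure D1:**
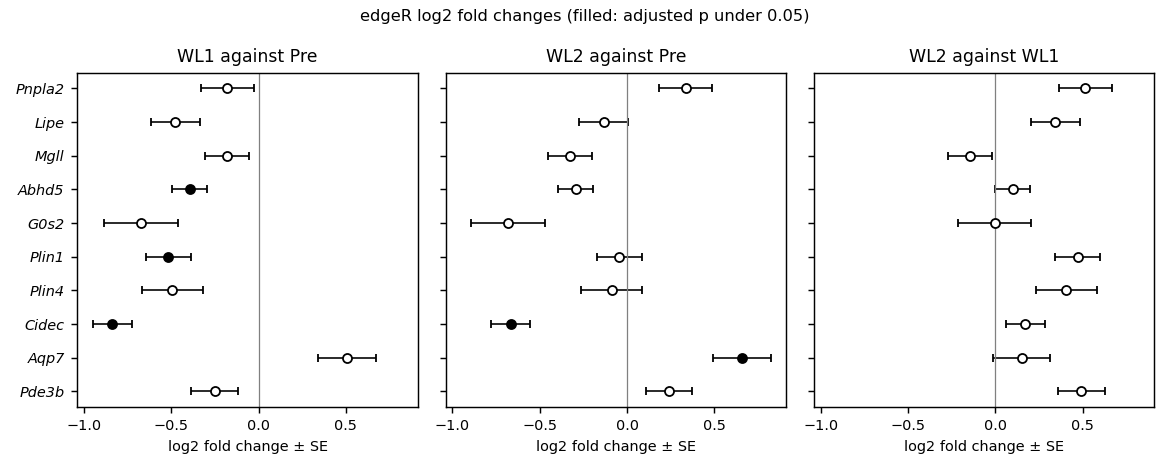
Log2 fold changes of the 10 genes from edgeR, with bars of 1 standard error, for WL1 against Pre, WL2 against Pre and WL2 against WL1. Filled circles passed an adjusted p of 0.05 and open circles did not. At WL1 all points but that of *Aqp7* lie left of 0, those of *Cidec* and *G0s2* lie farthest left at WL2, and 8 points lie right of 0 in the last panel.

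*Cidec* (ENSMUSG00000030278, chromosome 6, 113401595 to 113412721, minus strand) carried the largest change against Pre at WL1. Gene positions are those of the deposited table. They match the GRCm38 annotation used here for 1 of the 10 genes, so no build is given for them. The Pre libraries held 5299, 5327 and 4689 CPM (reads of the gene relative to the TMM-scaled library total), the WL1 libraries 2645, 3092 and 2826, and the WL2 libraries 3326, 3142 and 3174. All 6 libraries after the switch to SD were below all 3 Pre libraries. The log2 fold change was −0.84 ± 0.11 (SE) at WL1 (adjusted p = 0.00236) and −0.67 ± 0.11 at WL2 (adjusted p = 0.00456). WL1 and WL2 differed by 0.17 ± 0.11 (adjusted p = 0.428). The calls against Pre held in all 9 fits that each left out 1 library, with log2 fold changes from −0.90 to −0.79 at WL1 and from −0.73 to −0.64 at WL2. They were lost in limma on log2(FPKM + 0.1) at both phases and on log2(FPKM + 1) at WL2, and when libraries were scaled to 12 adipocyte markers, which gave −0.31 at WL1 (adjusted p = 0.223) and −0.70 at WL2 (adjusted p = 0.0651). Of those markers, *Lep* and *Retn* were themselves called lower at WL1. Under the alternatives other than leaving out libraries, the adjusted p ran from 1.82e-14 to 0.223 at WL1 and from 3.91e-09 to 0.0891 at WL2.

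*Plin1* (ENSMUSG00000030546, chromosome 7, 79369966 to 79382651, minus strand) encodes perilipin 1, the main coat protein of adipocyte droplets. Its level was 2284, 2033 and 1966 CPM at Pre, 1564, 1605 and 1220.1 CPM at WL1, and 1958, 2119 and 2015 CPM at WL2. The WL1 libraries lay below those of both other phases, and the Pre and WL2 libraries overlapped. *Plin1* fell at WL1 by 0.52 ± 0.13 on the log2 scale (adjusted p = 0.0400), differed by −0.04 ± 0.13 at WL2 (adjusted p = 0.856), and was 0.47 ± 0.13 above WL1 at WL2 (adjusted p = 0.0702). The call at WL1 was near the threshold and was lost in most fits that left out 1 library, with log2 fold changes from −0.59 to −0.41. It remained in 1 of 9 fits, that without WL2 replicate 1, and was lost without any of the 3 Pre, the 3 WL1 or the other WL2 libraries (adjusted p up to 0.124). It passed under 4 of the 10 other alternatives, with adjusted p from 0.000696 to 0.972, the highest being that of the adipocyte scaling, which gave −0.0099.

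The other coat protein measured, *Plin4* (ENSMUSG00000002831, chromosome 17, 56407591 to 56416803, minus strand), belongs to the same perilipin family. Its range was 2765 to 3798 CPM at Pre, 1731 to 2696 CPM at WL1 and 2978 to 3216 CPM at WL2. WL1 lay below both other phases without overlap, but no difference passed the edgeR test. DESeq2 called *Plin4* lower at WL1 (adjusted p = 0.0311). The log2 fold changes were −0.50 ± 0.18 at WL1 (adjusted p = 0.119), −0.09 ± 0.17 at WL2 (adjusted p = 0.784) and 0.41 ± 0.18 at WL2 against WL1 (adjusted p = 0.213). *Plin4* overlaps *Hdgfl2* on the opposite strand, whose reads amounted to 2.78% of its own. Outside the 10, the perilipin gene *Plin2* stood higher at WL1, without passing the edgeR test. It ranged from 593 to 865 CPM at Pre, from 1011 to 1742 CPM at WL1 and from 557 to 1212 CPM at WL2. The WL1 libraries of *Plin3* and *Plin5* overlapped those of Pre.

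Among the lipases, none passed the edgeR test in any of the 3 comparisons. *Pnpla2* (ENSMUSG00000025509, chromosome 7, 141035111 to 141040656, plus strand) was at 2141, 2179.6 and 1538 CPM at Pre, 1701, 1899 and 1572 CPM at WL1, and 2572, 2591 and 2228 CPM at WL2. The WL2 libraries were above all Pre and WL1 libraries, while Pre and WL1 overlapped. The log2 fold change was −0.18 ± 0.15 at WL1 (adjusted p = 0.504), 0.34 ± 0.15 at WL2 (adjusted p = 0.194) and 0.52 ± 0.15 at WL2 against WL1 (adjusted p = 0.0862). DESeq2 and the fit of the compared phases alone called the last difference, and over all alternatives its adjusted p ran from 0.0103 to 0.898.

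*Lipe* (ENSMUSG00000003123, chromosome 7, 25078952 to 25098135, minus strand) was at 1896, 1786 and 1556 CPM at Pre, 1293, 1438 and 1032 CPM at WL1, and 1505, 1685 and 1582 CPM at WL2. WL1 lay below both other phases without overlap. The log2 fold changes were −0.48 ± 0.14 at WL1 (adjusted p = 0.0687), −0.13 ± 0.14 at WL2 (adjusted p = 0.578) and 0.34 ± 0.14 at WL2 against WL1 (adjusted p = 0.189). DESeq2 called *Lipe* lower at WL1 (adjusted p = 0.00679). *Mgll* (ENSMUSG00000033174, chromosome 6, 88701394 to 88805342, plus strand), whose enzyme releases the last fatty acid, had its lowest mean at WL2. It ranged from 1617 to 2036 CPM at Pre, from 1415 to 1768 CPM at WL1 and from 1403 to 1500.4 CPM at WL2. The WL2 libraries were below those of Pre, but the log2 fold change of −0.33 ± 0.13 did not pass (adjusted p = 0.136), nor did −0.18 ± 0.13 at WL1 (adjusted p = 0.411) or −0.14 ± 0.13 at WL2 against WL1 (adjusted p = 0.580).

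*Abhd5* and *G0s2* encode the proteins that switch ATGL on and off. *Abhd5* (ENSMUSG00000032540, chromosome 9, 122180673 to 122210589, plus strand) was at 109.7, 100.9 and 106 CPM at Pre, 80.0, 79.8 and 81.1 CPM at WL1, and 95.1, 85.1 and 78.1 CPM at WL2. Both later phases lay below Pre without overlap. *Abhd5* fell at WL1 by 0.40 ± 0.10 on the log2 scale (adjusted p = 0.0416), whereas −0.30 ± 0.10 at WL2 (adjusted p = 0.0942) and 0.10 ± 0.10 at WL2 against WL1 (adjusted p = 0.630) did not pass. DESeq2 called the WL2 difference from Pre (adjusted p = 0.0339). The WL1 call remained without Pre replicate 2, WL2 replicate 1 or WL2 replicate 3 and was lost without any of the other 6 libraries (adjusted p up to 0.119). It passed under 5 of the 10 other alternatives (adjusted p from 0.00168 to 0.656), and its sign turned to 0.14 when libraries were scaled to adipocyte markers.

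*G0s2* (ENSMUSG00000009633, chromosome 1, 192954469 to 192955525, minus strand) was at 317, 261 and 165 CPM at Pre, 141, 178 and 146 CPM at WL1, and 155, 174 and 135 CPM at WL2. Pre replicate 3 overlapped the later phases and the other Pre libraries stood above all of them. The log2 fold change was −0.68 ± 0.21 at WL1 (adjusted p = 0.0823), −0.68 ± 0.21 at WL2 (adjusted p = 0.0701) and −0.0041 ± 0.21 between WL2 and WL1 (adjusted p = 0.996). Without Pre replicate 3 both differences from Pre passed, at −0.90 for WL1 (adjusted p = 0.0147) and −0.90 for WL2 (adjusted p = 0.00996). Over the other alternatives the adjusted p ran from 0.0170 to 0.678 at WL1 and from 0.0167 to 0.134 at WL2. *G0s2* overlaps *Lamb3* on the opposite strand, whose reads amounted to 14.0% of its own, and the sources used here do not give the strand setting of the counting, so reads of the pair cannot be told apart.

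*Aqp7* (ENSMUSG00000028427, chromosome 4, 41033074 to 41048139, minus strand), the channel through which glycerol leaves the adipocyte, was the gene of the 10 with higher levels in both later phases and the one that edgeR called higher. Its libraries held 353, 280.4 and 273 CPM at Pre, 468, 485 and 335 CPM at WL1, and 520.3, 492 and 417 CPM at WL2. All WL2 libraries were above all Pre libraries, and WL1 replicate 3 was below Pre replicate 1. *Aqp7* rose at WL2 by 0.66 ± 0.17 on the log2 scale (adjusted p = 0.0336). The differences at WL1 (0.51 ± 0.17, adjusted p = 0.0958) and between WL2 and WL1 (0.15 ± 0.17, adjusted p = 0.670) did not pass. DESeq2, scaling by library totals and scaling to adipocyte markers called *Aqp7* higher at WL1. The WL2 call was lost without Pre replicate 2, Pre replicate 3 or any WL2 library (adjusted p up to 0.114, log2 fold changes from 0.59 to 0.78) and remained in the other 4 fits. It also failed when scaled to adipocyte markers (0.64, adjusted p = 0.0964), and over the alternatives other than leaving out libraries its adjusted p ran from 0.00207 to 0.0964.

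*Pde3b* (ENSMUSG00000030671, chromosome 7, 114014516 to 114138486, plus strand), on the insulin side of the pathway, ranged from 254 to 292 CPM at Pre, from 182 to 254 CPM at WL1 and from 304 to 326 CPM at WL2. The WL2 libraries stood above those of both other phases without overlap. No difference passed the test. The log2 fold changes were −0.25 ± 0.13 at WL1 (adjusted p = 0.271), 0.24 ± 0.13 at WL2 (adjusted p = 0.282) and 0.49 ± 0.13 at WL2 against WL1 (adjusted p = 0.0674), the last being called by DESeq2 and when no filter on low counts was used.

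**Figure D2:**
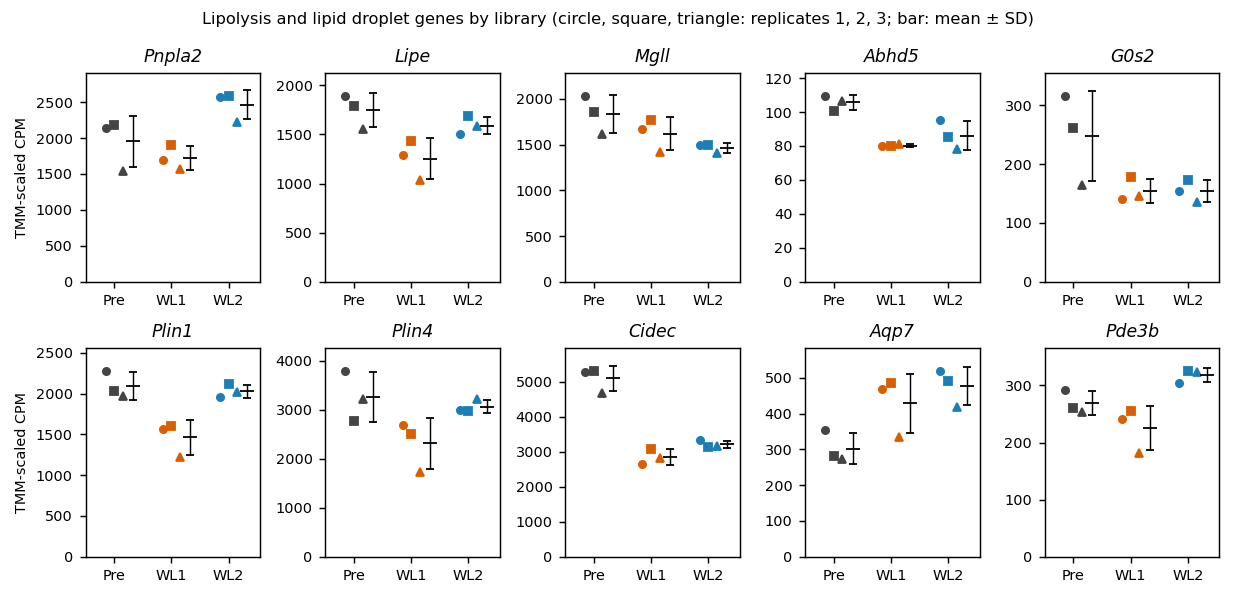
TMM-scaled CPM of each of the 10 genes in the 9 libraries, with 1 panel per gene and the phases Pre, WL1 and WL2 on the horizontal axis. Circles, squares and triangles are replicates 1, 2 and 3, bars are mean ± SD (n = 3), and axes start at 0. The later libraries of *Cidec* reach at most 3326 CPM and the Pre libraries at least 4689 CPM, while the WL1 libraries of *Plin1*, *Lipe* and *Plin4* lie below those of Pre and the WL2 libraries overlap them (of these 3, *Plin1* passed the test at WL1).

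The RNA levels of opposing partners were compared as ratios of FPKM (fragments scaled by gene length and library total) within each library. Protein was not measured, and reads of *G0s2* cannot be told apart from those of the overlapping *Lamb3*. The ratio of the inhibitor *G0s2* to its target lipase *Pnpla2* was 0.513, 0.416 and 0.372 at Pre, 0.287, 0.325 and 0.323 at WL1, and 0.208, 0.232 and 0.210 at WL2. The 3 phases did not overlap, and each phase was lower than the one before. On the log2 scale the means were −1.22 ± 0.23 (SD, n = 3), −1.69 ± 0.10 and −2.21 ± 0.09. WL1 differed from Pre by −0.47, WL2 from Pre by −0.99 and WL2 from WL1 by −0.52, each with p = 0.1 in a two-sided exact permutation test, which is the smallest p that 3 libraries against 3 allow. Across the 6 ratio comparisons made, adjustment cannot bring these below 0.05. Leaving out any library kept the sign of the 3 differences, which ran from −0.57 to −0.34, from −1.09 to −0.86 and from −0.58 to −0.49.

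The ratio of the coat protein *Plin1* to *Abhd5*, the co-activator it binds, was 26.7, 25.8 and 23.7 at Pre, 25.1, 25.8 and 19.3 at WL1, and 26.4, 31.9 and 33.1 at WL2. Pre overlapped both later phases. The log2 means were 4.66 ± 0.09, 4.53 ± 0.23 and 4.92 ± 0.18 (SD, n = 3). Two-sided exact permutation tests gave p = 0.5 for WL1 against Pre (−0.13), p = 0.2 for WL2 against Pre (0.26) and p = 0.1 for WL2 against WL1 (0.39). The first difference depended on WL1 replicate 3 and was 0.0026 without it.

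**Figure D3:**
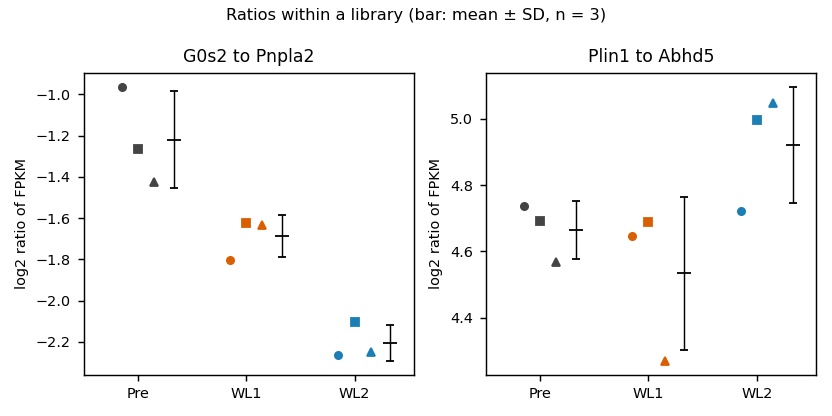
Log2 ratio of FPKM of *G0s2* to *Pnpla2* (left) and of *Plin1* to *Abhd5* (right) in each library, by phase, with bars of mean ± SD (n = 3). Circles, squares and triangles are replicates 1, 2 and 3, and the vertical axes do not start at 0. The left ratio steps from a mean of −1.22 to −1.69 and −2.21 without overlap, while the right ratio overlaps between Pre and both later phases.

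Per length, the 10 genes spanned a wide range of levels and kept nearly the same order through the phases. *Cidec* was the most abundant, with a mean FPKM of 2583 ± 181 (SD, n = 3) at Pre, 1424 ± 107 at WL1 and 1624 ± 21.9 at WL2, and it did not overlap the next gene in any phase. *Pnpla2* came next, with 607 ± 112, 529 ± 48.8 and 765 ± 59.2. *Plin4*, *Plin1*, *Mgll*, *Lipe* and *G0s2* followed, with means from 267 to 482 at Pre, 165 to 337 at WL1 and 166 to 453 at WL2. *Aqp7* (100.4 ± 14.5, 141 ± 26.8 and 158 ± 15.8) and *Pde3b* (27.7 ± 2.06, 22.9 ± 3.85 and 32.7 ± 1.76) came below them. The co-activator *Abhd5* was lowest in each phase, with 16.7 ± 0.68, 12.5 ± 0.13 and 13.5 ± 1.13 FPKM.

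Several neighbours in this order were not separated. At Pre the libraries of *Plin4* overlapped those of *Pnpla2* and of *Plin1*, and the libraries of *Lipe* those of *Mgll* and of *G0s2*. At WL1 *Mgll* overlapped *Plin4* and *Plin1*, and *G0s2* overlapped *Lipe* and *Aqp7*. At WL2 *Mgll* overlapped *Lipe* and *G0s2* overlapped *Aqp7*. *G0s2* was thus separated from *Aqp7* at Pre and not in the later phases.

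**Figure D4:**
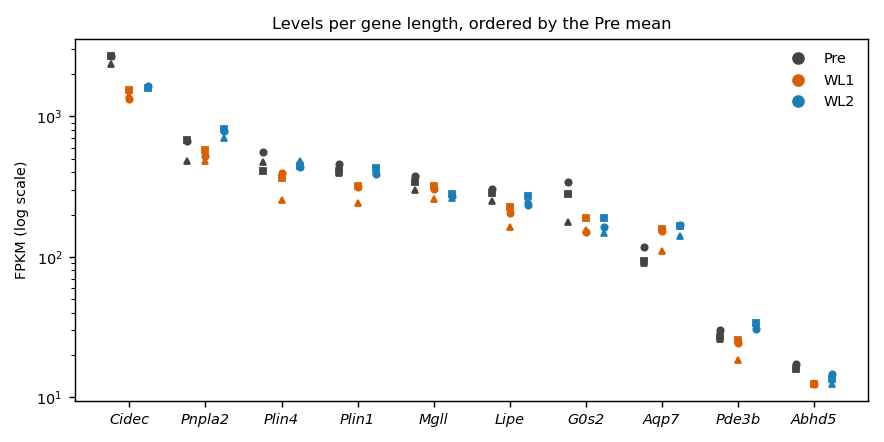
FPKM of the 10 genes on a log axis, ordered from left to right by the Pre mean, with 1 point per library coloured by phase (circles, squares and triangles are replicates 1, 2 and 3). *Cidec* lies above all others in each phase and *Abhd5* lies lowest in its phase mean, with about 2 orders of magnitude between them.

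The genes whose pattern over the 9 libraries came closest to that of *Pnpla2* were *Pttg1*, *Wbp1* and *Tmem159*. Their root mean square differences in centred log2 CPM were 0.05, 0.06 and 0.06 among 9943 genes compared. *Tmem159* is also among the other lipid droplet proteins listed next. Closest to *G0s2* were *Map1lc3a*, *Tmem205* and *Mrpl28*, at 0.11, 0.13 and 0.15.

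Counts in the lists that follow stand beside the edgeR shares over all genes. These were 2.60% higher and 4.69% lower at WL1, 3.35% and 6.66% at WL2 against Pre, and 1.31% and 2.37% at WL2 against WL1. Other lipases and lipase regulators changed in both directions. Of 13 tested at WL1, 2 rose and 1 fell, at WL2 against Pre 2 rose and 3 fell, and at WL2 against WL1 2 rose and 0 fell, with medians of 0.03, 0.00014 and −0.25. *Pnpla3*, a relative of *Pnpla2* that binds CGI-58 on droplets, was at 225 to 351 CPM at Pre, 59.6 to 72.4 at WL1 and 72.7 to 101 at WL2. It fell by 2.22 ± 0.20 at WL1 (adjusted p = 0.000347) and by 1.75 ± 0.19 at WL2 (adjusted p = 0.000417) on the log2 scale, a larger change than that of any of the 10 genes. It held in every fit that left out a library.

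The carboxylesterases *Ces1f* and *Ces1d*, of which *Ces1d* is a triglyceride hydrolase of adipocytes, rose late. *Ces1d* was 1.07 ± 0.21 above Pre (adjusted p = 0.0113) and 1.60 ± 0.22 above WL1 at WL2 (adjusted p = 0.00753), and without WL2 replicate 2 its values of 0.91 and 1.46 no longer passed (adjusted p = 0.0560 and 0.0505). *Ces1f* was 1.61 ± 0.25 above Pre (adjusted p = 0.00337) and 1.57 ± 0.25 above WL1 (adjusted p = 0.0139), the latter lost without WL1 replicates 2 or 3 or WL2 replicates 2 or 3 (adjusted p up to 0.0792). The *Ces1* genes are close copies, and the sources used here do not say how reads shared between them were counted. *Lipa*, the lysosomal acid lipase, rose at WL1 by 1.53 ± 0.35 (adjusted p = 0.0296), with 914 CPM in WL1 replicate 3 against 536 and 579 CPM in the other WL1 libraries. Its call was lost without any of the 6 libraries of Pre and WL1 (1.24 to 1.67, adjusted p up to 0.101). *Pnpla7*, a lysophospholipase, was 0.68 ± 0.16 higher at WL1 (adjusted p = 0.0339), a call lost without Pre replicates 1 or 3, WL1 replicates 2 or 3 or WL2 replicate 3 (adjusted p up to 0.110).

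Of 14 other lipid droplet proteins tested, 1 rose and 2 fell at WL1 and the same numbers at WL2 against Pre, with medians of −0.21 and −0.28. At WL2 against WL1 edgeR called 0, with 4 at an unadjusted p under 0.05 (21.4% of all genes) and 1 called by DESeq2 (10.5% of all genes). *Bscl2*, which encodes seipin, the protein that shapes new droplets at the endoplasmic reticulum, fell by 1.36 ± 0.13 at WL1 (adjusted p = 0.000471) and by 1.22 ± 0.13 at WL2 (adjusted p = 0.000273). Its libraries went from 332 to 361 CPM at Pre to 117 to 153 CPM at WL1 and 137 to 164 CPM at WL2. *Clstn3* fell by 1.73 ± 0.24 (adjusted p = 0.00308) and by 1.78 ± 0.24 (adjusted p = 0.00135). The locus also yields an adipocyte form that acts at droplets, which counts per gene do not separate. The droplet enzyme *Hsd17b11* rose by 0.75 ± 0.10 (adjusted p = 0.00284) and by 0.81 ± 0.10 (adjusted p = 0.000908). These 3 genes held in every fit that left out a library, and scaling to adipocyte markers ended the call of *Hsd17b11* at WL2 (0.77, adjusted p = 0.0845).

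Of 28 genes of the hormone and cAMP control of lipolysis, 1 rose and 5 fell at WL1, 2 rose and 7 fell at WL2 against Pre, and 3 rose and 0 fell at WL2 against WL1. The medians were −0.02, 0.07 and 0.06. *Ptger3*, a prostaglandin E2 receptor that lowers cAMP, was at 76.5 to 97.7 CPM at Pre, 24.4 to 30.5 at WL1 and 17.5 to 32.1 at WL2. It fell by 1.72 ± 0.21 (adjusted p = 0.00159) and by 1.70 ± 0.21 (adjusted p = 0.000877), and did so in every fit that left out a library. *Adcy3*, an adenylyl cyclase that makes cAMP, rose at WL1 by 0.93 ± 0.16 (adjusted p = 0.00793). *Npr3*, the clearance receptor of natriuretic peptides, fell at WL1 by 0.77 ± 0.17 (adjusted p = 0.0231), which was lost without Pre replicates 1 or 3 or WL1 replicates 1 or 3 (adjusted p up to 0.0754) and when scaled to adipocyte markers (−0.28, adjusted p = 0.268). It was also called lower at WL2 against Pre, which held in 8 of 9 fits that left out 1 library (−0.93 to −0.76).

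*Adrb3*, the main β-receptor of mouse adipocytes and also in the adipocyte marker list, was at 437 to 553 CPM at Pre, 192 to 401 CPM at WL1 and 852 to 1116 CPM at WL2. The phases did not overlap. It rose by 0.97 ± 0.24 against Pre (adjusted p = 0.0301) and by 1.59 ± 0.24 against WL1 (adjusted p = 0.0111). The first call was lost without any of the 6 libraries compared (adjusted p up to 0.116) and the second without WL2 replicate 2 (adjusted p = 0.0665). *Gnai1*, an inhibitory G protein subunit, rose by 0.65 ± 0.14 against WL1 (adjusted p = 0.0333). The call of *Gnai1* was lost without any WL1 library and without WL2 replicates 2 or 3 (adjusted p up to 0.158), and under the adipocyte scaling (0.11, adjusted p = 0.671).

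Of 12 genes of glycerol and fatty acid handling, 0 rose and 2 fell at WL1, 1 rose and 3 fell at WL2 against Pre, and 0 rose and 1 fell at WL2 against WL1, with medians of −0.05, −0.25 and −0.09. *Gk*, the kinase that traps glycerol inside the cell, moved opposite to the glycerol channel *Aqp7*. It fell by 0.77 ± 0.18 at WL1 (adjusted p = 0.0300) and by 1.10 ± 0.18 at WL2 (adjusted p = 0.00402), from at least 14.2 CPM in the Pre libraries to at most 11.7 CPM at WL1 and 9.47 CPM at WL2. The WL2 call held in every fit that left out a library and the WL1 call did not, being lost without any WL1 library, Pre replicate 2 or Pre replicate 3 (adjusted p up to 0.0927). The fatty acid transport proteins split, with *Slc27a4* 0.57 ± 0.14 lower at WL1 (adjusted p = 0.0331) and *Slc27a1* 0.81 ± 0.22 higher at WL2 (adjusted p = 0.0463). *Slc27a4* was also called lower at WL2 against Pre, which held in 6 of 9 fits that left out 1 library (−0.69 to −0.45). The WL1 call of *Slc27a4* was lost when any WL1 library, Pre replicate 2, or WL2 replicates 2 or 3 were left out (adjusted p up to 0.103), and the call of *Slc27a1* without any single library except Pre replicate 1 (adjusted p up to 0.124).

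*Acsl1*, which activates fatty acids to their CoA esters, fell at WL2 by 0.62 ± 0.14 (adjusted p = 0.0191) and missed without Pre replicate 1 or WL2 replicates 2 or 3 (adjusted p up to 0.0967). The fatty acid binding protein *Fabp5* fell between WL1 and WL2 by 1.03 ± 0.25 (adjusted p = 0.0496), which was lost in the 7 fits other than those without Pre replicate 2 or WL2 replicate 1 (−1.41 to −0.79, adjusted p up to 0.215). Scaled to adipocyte markers, *Gk* (−0.26) and *Slc27a4* (−0.05) at WL1 and *Slc27a1* (0.82) and *Acsl1* (−0.64) at WL2 against Pre no longer passed.

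Markers of the cell types of the tissue were followed in the same libraries. The 12 adipocyte markers were all detected, and their summed level was 24947 to 41521 CPM at Pre, 23845 to 28884 CPM at WL1 and 30205 to 31589 CPM at WL2. At WL1 0 were called higher and 2 lower (median −0.41), at WL2 against Pre 2 and 2 (median 0.02), and at WL2 against WL1 4 and 1 (median 0.49). The 12 macrophage markers, also all detected, summed to 1776 to 3333 CPM at Pre, 3181 to 5948 CPM at WL1 and 1979 to 3466 CPM at WL2. Their medians were 0.62, −0.0092 and −0.69. EdgeR called 0 of them in each comparison. An unadjusted p under 0.05 was reached by 5, 1 and 6 (24.3%, 26.0% and 21.4% of all genes). DESeq2 called 4, 0 and 2 (12.7%, 14.7% and 10.5% of all genes). At WL1 the medians were thus −0.44 for the 10 genes, of which 3 were called lower, −0.41 for the adipocyte markers and 0.62 for the macrophage markers, and the part of tissue makeup in the values of the 10 genes was not tested.

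WL1 replicate 3 was at the end of the range in both marker lists. It had the lowest adipocyte marker mean of the 9 libraries (−0.85 on the log2 scale against the Pre mean) and the highest macrophage marker mean (1.22). It was lowest of the 9 libraries in 4 of the 10 genes and lowest of its phase in 7. Other libraries were also low in several of the 10 genes, with Pre replicate 3 lowest of its phase in 8 and lowest of the 9 in 2, and WL2 replicate 3 lowest of its phase in 5 and lowest of the 9 in 3. Pre replicate 1 was highest of the 9 in 6 genes, with the highest adipocyte marker mean (0.28) and the lowest macrophage marker mean (−0.49). Relative to adipocyte markers, the median over the 10 genes was 0.08 at WL1 with 7 positive, −0.14 at WL2 with 3 positive and −0.29 at WL2 against WL1 with 0 positive, while the median of all genes moved to 0.54, −0.03 and −0.56. On that scale *Aqp7* was called higher at WL1 (1.01, adjusted p = 0.0161) and *Mgll* lower at WL2 against WL1 (−0.69, adjusted p = 0.0233), and no other call was made among the 10. All-gene splits on that scale were 3678 higher and 192 lower at WL1, 157 and 490 at WL2 against Pre, and 55 and 4111 at WL2 against WL1.

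**Figure D5:**
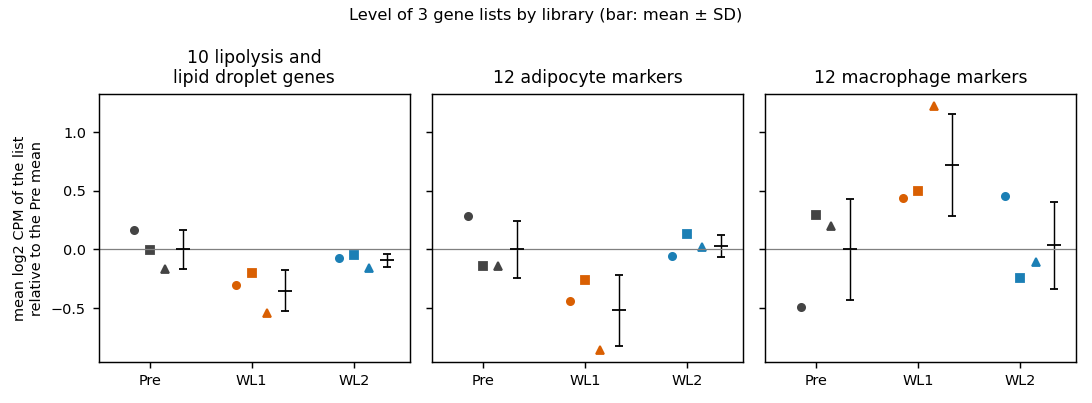
Mean log2 CPM of the 10 genes (left), of 12 adipocyte markers (middle) and of 12 macrophage markers (right) in each library, relative to the Pre mean, with bars of mean ± SD (n = 3). Circles, squares and triangles are replicates 1, 2 and 3. WL1 replicate 3 is lowest for the 10 genes (−0.54) and the adipocyte markers (−0.85) and highest for the macrophage markers (1.22).

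Other cell type markers also differed between libraries. Lymphoid markers summed to 1191 to 2717 CPM at Pre, 172 to 304 CPM at WL1 and 169.7 to 271 CPM at WL2, with 1 of 8, *Ighm*, called lower at each later phase. *Ighm*, named after its values were seen, made up most of these sums, with a mean of 1622 CPM at Pre. The mean log2 level of the 8 markers was high in Pre replicate 2 (2.44 against the Pre mean), whereas it was −1.15 and −1.29 in Pre replicates 1 and 3, beside −1.25 to −0.43 in the WL1 and WL2 libraries. Fibroblast markers summed to 4245 to 5765 CPM at Pre, 4173 to 7276 CPM at WL1 and 4049 to 4419 CPM at WL2. EdgeR called 1 of 10 higher and 1 lower at WL2 against Pre and 0 in the other comparisons. An unadjusted p under 0.05 was reached by 2, 7 and 7 in the 3 comparisons (24.3%, 26.0% and 21.4% of all genes). DESeq2 called 0, 3 and 6 (12.7%, 14.7% and 10.5% of all genes). Endothelial markers summed to 1198 to 2245 CPM over the 9 libraries, with 0 of 8 called. Mesothelial markers ranged from 39.6 to 695 CPM with 0 of 8 called in any comparison by edgeR. At WL2 against WL1, however, 8 had an unadjusted p under 0.05 (21.4% of all genes) and DESeq2 called 1 (10.5% of all genes). Hepatocyte markers summed to at most 88.9 CPM, with 1 called lower at WL2 against Pre, and skeletal muscle markers to at most 46.9 CPM, with 1 called lower at WL1. Epididymis markers were at or near 0 (at most 0.174 CPM in sum) and none was tested.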

How the data were processed

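RNA of epididymal adipose tissue was measured in 9 libraries. Groups and replicate numbers came from the sample labels. The authors deposited whole-number counts per gene, not normalized, and FPKM of the same libraries. The FPKM implied totals 0.995 to 1.12 times the summed counts. The submitters' processing notes name HISAT2, HISAT, TopHat2, CASAVA and GRCm38/mm10. Versions, the counting program and the strand setting were not given in the sources used. Only 1472 of 52073 shared genes had the coordinates of GENCODE M21 on GRCm38, so gene positions carry no build.

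Genes reaching 0.5 CPM in 1 or more libraries were tested on the deposited counts in R 4.3.3 with edgeR 4.0.16 (quasi-likelihood, TMM, 1 model over 9 libraries, common dispersion 0.0478), adjusted by Benjamini-Hochberg at 0.05. SE was the absolute log2 fold change divided by the square root of F. Ratios were compared by exact permutation tests (scipy 1.17.1). Alternatives were DESeq2 1.42.0, limma 3.58.1 on log2(FPKM + 1) and log2(FPKM + 0.1), other filters and scaling factors, a fit of the compared phases alone, the replicate number as a block, and leaving out each library. The edgeR step was also run on simulated counts, with the common dispersion for all genes and 2-fold changes. That run does not bear on smaller changes or on the spread of single genes. No libraries held identical values.

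The 10 genes, the other lists and the cell type markers were chosen from general knowledge with earlier results of these data known. From each pathway list, the up to 3 genes with the largest change among those past the threshold and any gene called against the majority of its list are named, and for *Pnpla2* and *G0s2* the 3 genes with the nearest pattern among those with a mean of at least 10 CPM. A gene that this rule names is not reported here. *Adrb3* stands in the list of hormone control and in that of adipocyte markers, and *Fabp4* in that of fatty acid handling and of adipocyte markers. Promoter windows are from RefSeq (GRCm38.p6).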

Additional observations from a re-analysis of the deposited data

How the results depend on the processing

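*Cidec*, *Aqp7*, *Plin1* and *Abhd5* are treated in the report. Among the 10 genes, WL1 against Pre gave 7 calls with DESeq2 and 1 each with limma on log2(FPKM + 0.1) (1198 of all genes), the fit of the compared phases alone (992) and the adipocyte marker scaling. WL2 against Pre gave 4 with DESeq2 (2717 of all genes), 1 with limma at either pseudocount (1820 and 1771 of all genes) and 0 with the adipocyte scaling. WL2 against WL1 gave 3 with DESeq2 and 1 each without a filter beyond 1 read, with the phases alone and with the adipocyte scaling. Over all genes, DESeq2 called 2344 at WL1 and 1935 at WL2 against WL1, the phases alone 1053 and no filter 1668 at WL2 against WL1, and the adipocyte scaling 3870, 647 and 4166 in the 3 comparisons. Leaving out 1 library gave 512 to 1500, 743 to 1688 and 37 to 1351 genes, of the 10 genes 1 to 3, 1 to 2 and 0, and for the log2 ratio of *G0s2* to *Pnpla2* differences of −0.57 to −0.34, −1.09 to −0.86 and −0.58 to −0.49, for that of *Plin1* to *Abhd5* −0.21 to 0.0026, 0.19 to 0.36 and 0.25 to 0.49.

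Signs turned as follows. The adipocyte scaling gave positive values at WL1 for *Pnpla2* (0.34), *Lipe* (0.026), *Mgll* (0.33), *Abhd5* (0.14), *Plin4* (0.010) and *Pde3b* (0.25), and negative values at WL2 against WL1 for *Pnpla2* (−0.036), *Lipe* (−0.19), *Abhd5* (−0.47), *Plin1* (−0.068), *Plin4* (−0.12), *Cidec* (−0.39), *Aqp7* (−0.38) and *Pde3b* (−0.041), while the median of all genes moved by about the same amount. Library totals alone gave positive values at WL2 against Pre for *Lipe* (0.018), *Plin1* (0.11) and *Plin4* (0.063), and leaving out Pre replicate 1 gave 0.022 for *Plin1* and 0.036 for *Plin4* (−0.088 to 0.022 and −0.19 to 0.036 over all fits without 1 library). *G0s2* at WL2 against WL1, near 0, was positive with DESeq2 (0.012), RLE factors (0.012), the filter on 3 libraries (0.020), the phases alone (0.0039), library totals (0.049), limma (0.015 at both pseudocounts) and without WL1 replicate 2 (0.11) or WL2 replicate 3 (0.084), with −0.096 to 0.11 over all fits without 1 library. The causes were not tested.

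No pairing of the libraries by replicate number was seen, although the few libraries of each phase cannot show that it was absent. Same-numbered libraries had correlations of −0.28 to 0.11 in their deviations from the phase means, and 0 of 9 libraries correlated best with their own number. The fit with the replicate number as a block called 844, 1400 and 330 genes, and 1, 2 and 0 of the 10. The lowest count of the 10 genes in a library was 1349 reads, and the effect of depth was not tested.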
